A study of Mus musculus with 6 samples.

Results

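The V-ATPase membrane sector and its accessory subunits were followed in mouse bone marrow macrophages (BMMs) through 10 genes chosen by name, of 18193 genes with a probe set on the array. These were Tcirg1, Atp6v0a1, Atp6v0a2, Atp6v0b, Atp6v0c, Atp6v0d1, Atp6v0d2, Atp6v0e, Atp6ap1 and Atp6ap2. A probe set was used where the platform annotation gave exactly 1 symbol, that of a member. In this way 9 of the 10 genes were found, through 19 probe sets, and Atp6v0c was not analysed here. The brightest probe set over the 6 arrays represented each gene.

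RNA was measured on Affymetrix Mouse Genome 430 2.0 arrays. The mutant group (n = 3 arrays) carried a chimeric receptor in which the external domain of mouse TNFR1 was joined to the membrane-spanning and inner parts of mouse RANK, with the IVVY motif inactivated by mutation, and the wild-type group (n = 3 arrays) carried the same chimera with an intact motif. In both groups the BMMs were c57BL/6, lacked TNFR1 and TNFR2, had been infected with retrovirus and were selected in puromycin at 2 ug/ml for 3 days. Both groups then received M-CSF at 44 ng/ml and TNFα, the ligand of the chimera's outer part, at 10 ng/ml for 24 hours. RNA of 6 dishes was pooled per array, and mutant and wild-type preparations were made in 3 independent assays, to which the replicate numbers were taken to refer. The labels name no change to the cells' own RANK gene, and neither the age of the mice nor the promoter driving the chimera is given in the sources used here. What the series set out to find is which genes depend on the IVVY motif.

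The V-ATPase is a rotary proton pump. Its cytosolic V1 sector splits ATP and its membrane-embedded V0 sector, built of the a, c, c″, d and e subunits, carries protons into lysosomes and other compartments. Macrophages use the pump to acidify phagosomes and lysosomes. Osteoclasts, which form from the same precursors under RANK signalling, also place it in the ruffled border, where the acid dissolves bone mineral.

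The arrays were alike in overall brightness, with 75th percentiles of intensity between 160 and 164 and medians between 8.86 and 9.38. All 6 macrophage markers found lay above the array median on every array, among them Csf1r and Cd68. The summed intensity of 8 osteoclast markers lay at 823 to 1328 in mutant cultures and at 8090.4 to 25187 in wild-type cultures. On every array Acp5, Ctsk and Mmp9 made up most of it, and the others were dimmer. The summed intensity of 9 stromal markers lay at 580.3 to 6391 in mutant cultures and at 272 to 4485 in wild-type cultures, with the highest value of each group on its array 3. On arrays 1 and 2 most of this sum was Fn1, at 517 and 430 in mutant and 212 and 202 in wild-type cultures. No other stromal marker read above 57.4 on these arrays. None of the 5 neutrophil, 3 T cell and 2 erythroid markers found was above the array median on any array. In these bulk samples fewer cells of a type and less RNA per cell cannot be told apart. Of the 3 B cell markers found Ms4a1 alone passed the filter, at 9.17 to 11.7 on all 6 arrays, and of the 4 dendritic cell markers Itgax, which macrophages also express. With 3 arrays a group, precision is limited for every value given.

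The member furthest apart between mutant and wild-type macrophages was Atp6v0d2, the d subunit isoform known from osteoclasts, at 429.8 ± 129 on the mutant arrays against 933 ± 664 on the wild-type arrays (mean ± SD of intensity, n = 3 each). Its groups overlapped. The other 8 genes differed by −12.4% for Atp6v0b to 16.2% for Atp6v0a1. Differences are given as mutant minus wild type on the scale of log2(intensity + 16), on which −1 is a halving of a bright signal. On this scale Atp6v0d2 differed by −0.91 ± 0.53 (SE, n = 3 each) and the other 8 genes by −0.19 to 0.22, with a median over the 9 of −0.09, where the median over all 10372 genes tested was 0.01. The mutant mean was the lower one for 7 of the 9 genes, against 46.8% of all genes, and 5 genes were lower in every same-numbered pair, against 12.0% of all genes. The 5 were Tcirg1, Atp6v0a2, Atp6v0b, Atp6v0d2 and Atp6v0e, and 0 members were higher in every pair. By probe set, 16 of the 18 tested had a lower mean, against 48.3% of all probe sets, and 12 were lower in every pair, against 11.7%. The 18 belong to 9 genes and were read on the same arrays, so they are not separate observations. With the mean of a gene's probe sets, 9 genes had a lower mean and 4 were lower in every pair.

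No member passed the test. By limma 0 of the 18 member probe sets kept by the filter on dim signals had an adjusted p under 0.05, as did 0% of all 22497 probe sets tested. At an unadjusted p under 0.05 by limma there were 2 of the 18, both of Atp6v0b, and 198 in the whole table. Adding the replicate number as a block also left 0 members called by limma. The SEs and intervals given are those of the fit without this block, so they include the spread between assays. With the block the SEs of the 9 genes ran from 0.07 for Atp6v0a2 to 0.33 for Atp6v0d2, against 0.19 and 0.53 without it. By the brightest probe sets, the smallest unadjusted p of the 9 genes with the block was 0.0536, for Atp6v0d2 (limma, adjusted p = 0.859). The count of 7 genes with a lower mean was 4 without mutant array 1, where the median over the members was 0.021. Leaving out 1 array sets unlike assays against each other. Without both arrays of assay 1 the count was 7 and the median −0.06.

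**Figure D1:**
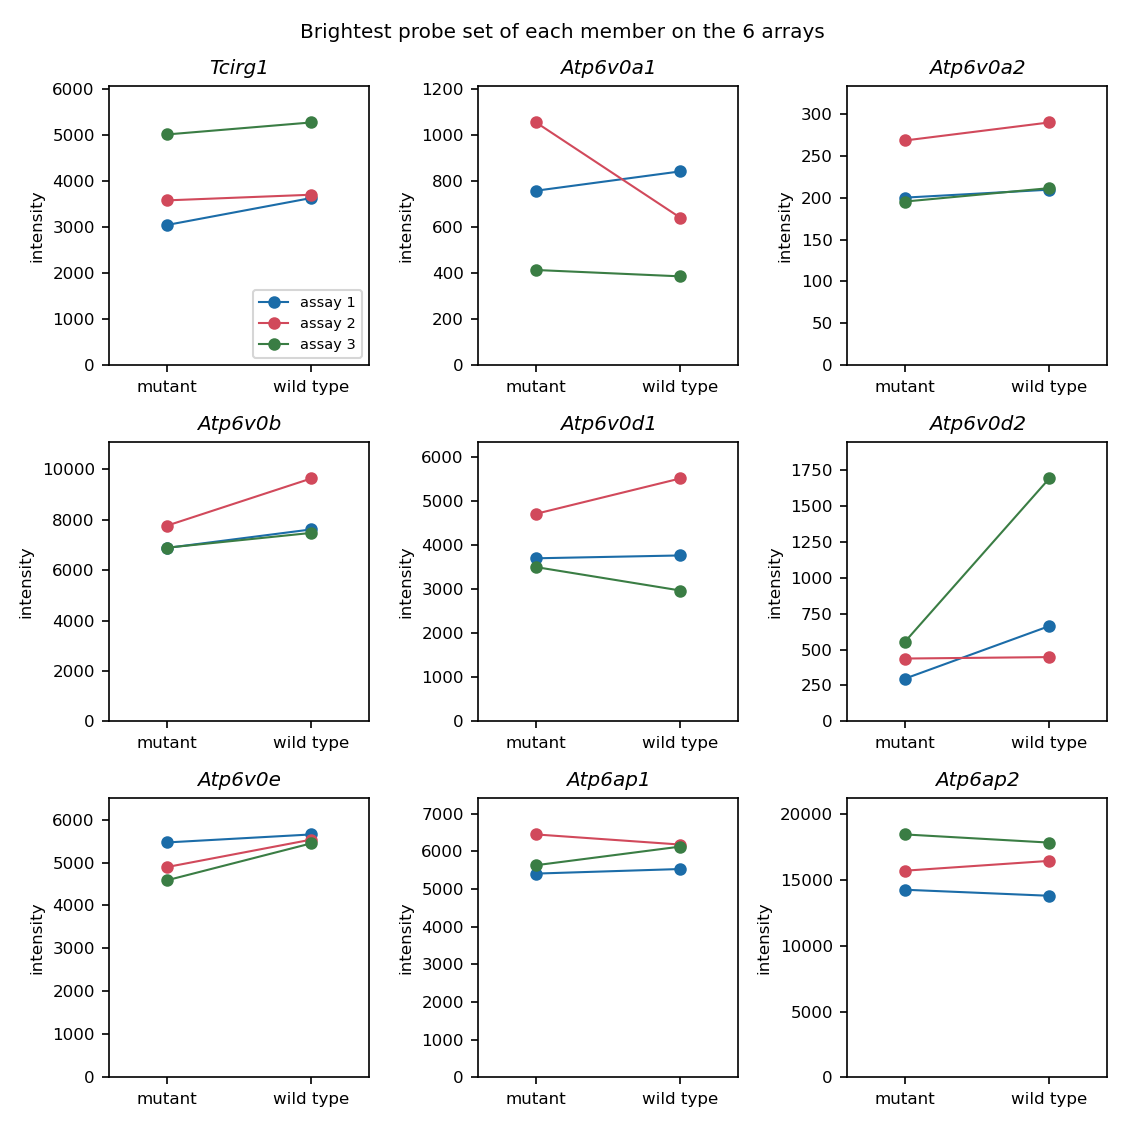
Intensity (linear axis from 0) of the brightest probe set of each of the 9 members on the mutant arrays (left) and the wild-type arrays (right). A line joins the 2 arrays of an assay. Atp6v0d2 stands out by the wild-type array of assay 3, at 1689, while for most other members the lines are nearly flat and lie apart by assay.

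The assay weighed more on most members than the group. For the 9 genes, the assay accounted for a median of 83.3% of the sum of squares over the 6 arrays and the group for 4.93%, against 77.3% and 4.51% over all genes tested. Atp6v0e was the one gene of the 9 whose brightest probe set had a larger group share than assay share, 52.1% against 33.6%. For Atp6v0b the brightest probe set had a group share of 34.8% against 58.3% for the assay. Its second and its dimmest probe sets had the larger share for the group, at 72.5% against 9.70% and 76.2% against 16.8%.

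The a subunit anchors the V0 sector and holds the channels through which protons enter and leave, and its isoforms direct the pump to different membranes. Tcirg1 encodes isoform a3, the form of osteoclasts and of lysosomes in macrophages, and its loss causes osteopetrosis in mice and humans. Its 1 probe set read 3052, 3587 and 5019.8 on mutant arrays 1, 2 and 3, and 3638, 3709.7 and 5281 on wild-type arrays 1, 2 and 3. The groups overlapped, both arrays of assay 3 were the brightest, and the mutant was the lower one in each pair, with log2 differences of −0.25, −0.05 and −0.07. The difference of −0.12 ± 0.25 (SE, n = 3 each) did not pass (limma, adjusted p = 0.99998), and its 95% interval ran from −0.75 to 0.50. Without mutant array 1 it was 0.03 and without wild-type array 3 it was 0.05, but leaving out 1 array sets unlike assays against each other. Without both arrays of assay 1, 2 or 3 it was −0.06, −0.16 and −0.15. These could not turn, as the mutant was lower in each pair.

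Atp6v0a2 encodes isoform a2, found in the Golgi and in endosomes. Its brightest probe set read 199.95, 268 and 195 on mutant arrays 1, 2 and 3, and 209, 289.5 and 211 on wild-type arrays 1, 2 and 3. The groups overlapped widely and assay 2 was the brightest in both. The difference was −0.09 ± 0.19 SE. Its 2 dimmer probe sets differed by −0.26 ± 0.23 and −0.31 ± 0.39 SE, each with the mutant below the wild type in all 3 pairs, and both were dim. The first read 71.7, 43.1 and 76.8 on mutant arrays 1, 2 and 3, and 71.9, 65.9 and 98.5 on wild-type arrays 1, 2 and 3. The other read 60.3, 29.03 and 90.2 on mutant arrays 1, 2 and 3, and 78.1, 48.2 and 100.3 on wild-type arrays 1, 2 and 3. Here assay 2 was the dimmest in both groups, although it was the brightest on the first-named probe set, and none of the 3 passed.

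Atp6v0a1 encodes isoform a1, best known from neurons, and its probe sets disagreed. The brightest read 759, 1056 and 415 on mutant arrays 1, 2 and 3, and 843, 642 and 387 on wild-type arrays 1, 2 and 3. Only the pair of assay 2 was far apart there, with the mutant higher by 0.70 on the log2 scale. A second probe set read 306, 88.8 and 213 on mutant arrays 1, 2 and 3, and 362, 144 and 196 on wild-type arrays 1, 2 and 3, so that in assay 2 the log2 difference was −0.61. Another read 321, 75.7 and 225 on mutant arrays 1, 2 and 3, and 329.998, 85.8 and 246 on wild-type arrays 1, 2 and 3, a difference of −0.10 ± 0.67 SE. On these 2 dimmer probe sets both arrays of assay 2 were the lowest of their group. The last lay below the filter, at 7.84 to 7.96 on all 6 arrays. The first and second differed by 0.22 ± 0.44 and −0.24 ± 0.53 SE, so the direction for Atp6v0a1 depended on the probe set.

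The proteolipids form the rotating ring that carries the protons through the membrane, and Atp6v0b encodes c″, a single copy of which sits in the ring. Each of its 3 probe sets was lower in every pair. The brightest read 6883, 7767 and 6892 on mutant arrays 1, 2 and 3, and 7617, 9639 and 7478 on wild-type arrays 1, 2 and 3. The groups overlapped, because mutant array 2 lay above wild-type arrays 1 and 3.

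The second probe set of Atp6v0b read 4457, 4401 and 4303 on mutant arrays 1, 2 and 3, and 4730.2, 5540.0 and 5679 on wild-type arrays 1, 2 and 3. The dimmest read 326, 330.1 and 289 on the mutant arrays, and 368, 417 and 376 on the wild-type arrays. On both, every mutant array lay below every wild-type array, and these were the 2 of the 18 member probe sets without overlap, against 1.59% of all probe sets that were lower without overlap.

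The 3 probe sets of Atp6v0b differed by −0.19 ± 0.14, −0.27 ± 0.11 and −0.28 ± 0.10 (SE, n = 3 each), which is 1.14-fold, 1.21-fold and 1.22-fold lower in the mutant. The unadjusted p-values of the second and the dimmest were 0.0486 and 0.0389 by limma, and over all probe sets the adjusted p was 0.99998 for each. With the replicate number as a block their unadjusted p-values by limma were 0.0526 and 0.0288, with an adjusted p of 0.859 for each. Without wild-type array 2 the brightest differed by −0.07. Probe set names ending in _x_at, those of the brightest and the dimmest here, mark probes that other transcripts may share. The second ends in _s_at, and its probes too may be shared. The brightest and second probe sets of Atp6ap2 also end in _x_at, and the probe set of Atp6ap1 in _s_at.

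The start of Atp6v0b was the one promoter of the 8 members in the RefSeq promoter table (build GRCm38.p6) that held the letters CACGTG, the E-box to which the MiT factors MITF, TFEB, TFE3 and TFEC can bind. It held them at 2 places, whose first bases lie 36 and 18 bases before the start. The search covered the 250 bases before each start, CACGTG reads the same on both strands, and 6.86% of the 27025 genes in the table had a match in at least 1 window, as some genes have several starts. The other 7 members in the table were Tcirg1, Atp6v0a1, Atp6v0c, Atp6v0d1, Atp6v0e, Atp6ap1 and Atp6ap2, while Atp6v0a2 and Atp6v0d2 were not analysed in this way. The window of Atp6v0b, chr4:117887330-117887579 on the minus strand, is shown with the matches in capitals, beside that of Atp6v0e, chr17:26676146-26676395 on the plus strand, a member that was also lower in every pair and has no match. The match is a description of the letters and says nothing of binding.
Atp6v0b: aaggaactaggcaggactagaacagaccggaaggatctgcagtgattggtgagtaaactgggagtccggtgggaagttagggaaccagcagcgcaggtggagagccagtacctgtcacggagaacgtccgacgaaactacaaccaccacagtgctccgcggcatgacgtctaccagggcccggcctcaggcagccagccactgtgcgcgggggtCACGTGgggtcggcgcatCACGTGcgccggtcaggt
Atp6v0e: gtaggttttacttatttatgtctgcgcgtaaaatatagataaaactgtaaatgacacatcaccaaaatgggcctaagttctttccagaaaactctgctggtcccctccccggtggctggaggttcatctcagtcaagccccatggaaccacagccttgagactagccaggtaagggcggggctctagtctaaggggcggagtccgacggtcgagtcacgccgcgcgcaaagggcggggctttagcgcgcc

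Atp6v0e encodes the small e subunit of the membrane sector. Its 1 probe set read 5467, 4894 and 4587 on mutant arrays 1, 2 and 3, and 5653, 5532 and 5446 on wild-type arrays 1, 2 and 3. Mutant array 1 lay just above wild-type array 3, so the groups overlapped, while mutant arrays 2 and 3 lay below all wild-type arrays. The difference of −0.16 ± 0.10 SE, 1.12-fold lower in the mutant, did not pass (limma, adjusted p = 0.99998).

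**Figure D2:**
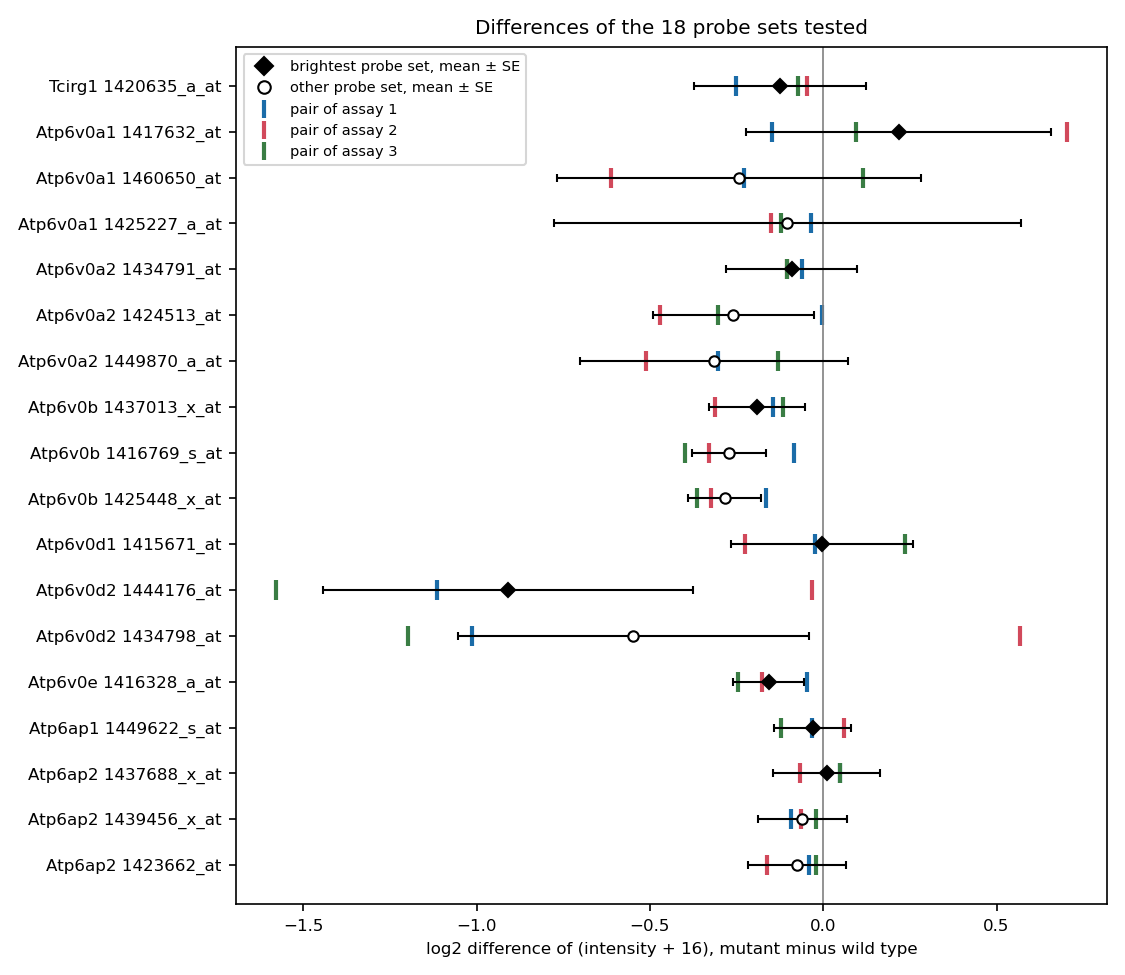
Log2 differences of (intensity + 16), mutant minus wild type, of the 18 member probe sets tested. Diamonds (brightest probe set of a gene) and open circles (other probe sets) are means with the SE of the limma fit, and coloured ticks are the 3 same-numbered pairs. The 3 Atp6v0b probe sets have all ticks below 0, while the ticks of Atp6v0d2 run from −1.58 to 0.57.

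The d subunit couples the rotor of V1 to the proteolipid ring. Atp6v0d1 is the isoform of most tissues, and Atp6v0d2 is restricted in its expression, is induced when osteoclasts form and is needed for the fusion of their precursors in mice. The brightest probe set of Atp6v0d2 read 298, 437 and 555 on mutant arrays 1, 2 and 3, and 663, 447 and 1689 on wild-type arrays 1, 2 and 3. Wild-type arrays 1 and 3 lay above all mutant arrays, while wild-type array 2 lay between mutant arrays 2 and 3.

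The log2 difference of Atp6v0d2 was −0.91 ± 0.53 SE, a 1.88-fold lower level, with a 95% interval of −2.25 to 0.44, and it did not pass (limma, adjusted p = 0.99998). Of all genes tested 0.781% had a lower difference. In assays 1, 2 and 3 the pairs differed by −1.11, −0.03 and −1.58, so that assay 2 had hardly any difference. Without wild-type array 3 the difference was −0.37, without both arrays of assay 3 it was −0.57, and without both arrays of assay 2 it was −1.35.

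The second probe set of Atp6v0d2 read 226, 586 and 448 on mutant arrays 1, 2 and 3, and 472, 390 and 1049 on wild-type arrays 1, 2 and 3. In assay 2 it was higher in the mutant, by 0.57 on the log2 scale, and in assays 1 and 3 it differed by −1.01 and −1.20. Its mean difference was −0.55 ± 0.51 SE. Both probe sets thus separated assays 1 and 3 from assay 2.

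Atp6v0d1, in contrast, read 3703, 4713 and 3503 on mutant arrays 1, 2 and 3, and 3767, 5515 and 2972 on wild-type arrays 1, 2 and 3. Its groups overlapped fully, with assay 2 the brightest in both, and the difference was −0.005 ± 0.26 SE (95% interval −0.67 to 0.66). The log2 level of Atp6v0d2 minus that of Atp6v0d1 averaged −3.19 ± 0.50 in mutant cultures, against −2.29 ± 1.39 in wild-type cultures (SD, n = 3 each), and the groups differed by −0.90. Without wild-type array 3 they differed by −0.16 and without wild-type array 2 by −1.55, so the size rested on single arrays. An exact permutation test (two-sided, 20 splits of the arrays without regard to assay) gave p = 0.500, and since the smallest p that it can give is 0.10, it could not have passed. The pairs of assays 1, 2 and 3 differed by −1.09, 0.19 and −1.82 in this measure.

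Of the 8 osteoclast markers, Acp5, Ctsk, Mmp9 and Dcstamp lay above the array median on every array. Each of them was lower in the mutant in assay 2, where Atp6v0d2 was nearly flat. Calcr and Ocstamp lay below the array median on all mutant arrays, at 6.38 to 6.59 and 4.47 to 4.64. They passed the filter through the wild-type arrays alone, so their lower mutant values follow from the filter. Acp5, the tartrate-resistant acid phosphatase, differed by −3.10, −3.997 and −3.51 on the log2 scale in assays 1, 2 and 3, and Mmp9, a matrix protease, by −5.07, −5.18 and −4.38. Ctsk, the collagen-degrading cathepsin K, differed by −3.90, −1.63 and −5.93, so its smallest difference also fell in assay 2. Acp5, Ctsk and Mmp9, at 11.6-fold, 14.1-fold and 29.4-fold lower in the mutant, did not pass either (limma, adjusted p = 0.99998 for each). With the block their adjusted p-values by limma were 0.287, 0.859 and 0.182. Dcstamp and Ocstamp, which act in the fusion of osteoclast precursors, were dim and had their smallest difference in assay 2 too. Dcstamp differed by −1.61, −1.51 and −2.78 in assays 1, 2 and 3, and Ocstamp by −0.56, −0.47 and −1.87. Itgb3 and Oscar lay below the filter, and in assay 2 they differed by −0.013 and 0.0014. Acp5, Ctsk and Mmp9 were brightest on wild-type array 3, at 9497 for Acp5, 7375 for Ctsk and 7992 for Mmp9, the array on which Atp6v0d2 and the 5 other markers were brightest too. The part of such markers in the level of Atp6v0d2 was not tested.

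**Figure D3:**
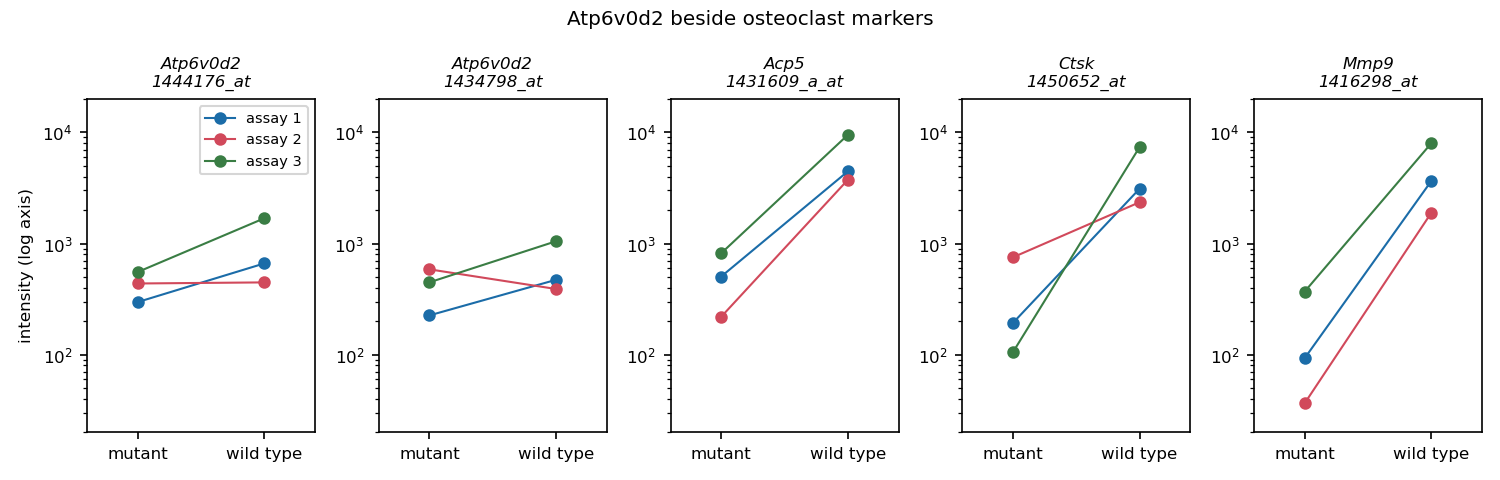
Intensity (log axis) of both Atp6v0d2 probe sets, brightest first, and of the osteoclast markers Acp5, Ctsk and Mmp9 on the mutant arrays (left) and wild-type arrays (right), with a line for each assay. Every marker line is lower at its mutant end than at its wild-type end, while the assay 2 line of Atp6v0d2 joins 437 (mutant) and 447 (wild type) on the brightest probe set, and 586 (mutant) and 390 (wild type) on the other.

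Over the 6 arrays, after centring each gene on its own mean log2 value, the 5 genes closest to Atp6v0d2 were H2-Q5, Gbp8, Ube2l6, Slamf6 and Serpind1. Their root mean square distances from it were 0.21, 0.26, 0.26, 0.28 and 0.29, where the median over 10371 genes was 0.82. A gene that did not vary over the arrays would lie at 0.76. Each was lower in the mutant in every pair, with the smallest difference in assay 2 and the highest intensity on wild-type array 3. This likeness follows from how the genes were chosen and is no separate result. Gbp8, at 7.81 and 8.19 on mutant arrays 1 and 2, and Serpind1, at 7.27 to 8.66 on the mutant arrays, lay below the array median there. They were dimmer probe sets, with means over the 6 arrays of 23.1 to 150, and the ranking is a description of 6 arrays from 3 assays.

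The accessory subunits are glycoproteins that bind the membrane sector and take part in assembling the pump. Atp6ap1, or Ac45, read 5407, 6446 and 5629 on mutant arrays 1, 2 and 3, and 5528, 6177 and 6123 on wild-type arrays 1, 2 and 3. The groups overlapped, the mutant was higher in assay 2 and lower in assays 1 and 3, and the difference was −0.03 ± 0.11 SE (95% interval −0.31 to 0.25).

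Atp6ap2 encodes the (pro)renin receptor, a piece of which stays with the pump. Its brightest probe set read 14268, 15717 and 18473 on mutant arrays 1, 2 and 3, and 13810, 16463 and 17853 on wild-type arrays 1, 2 and 3. The order of the assays was the same in both groups, and the difference was 0.01 ± 0.15 SE (95% interval −0.38 to 0.40). Its 2 other probe sets read 8403, 9314 and 10481 and, for the dimmer, 6298, 5026 and 6492 on mutant arrays 1, 2 and 3, against 8965, 9747 and 10636 and, for the dimmer, 6485, 5628 and 6584 on wild-type arrays 1, 2 and 3. They differed by −0.06 ± 0.13 and −0.07 ± 0.14 SE and were lower in every pair, with differences between −0.16 and −0.02. None of these passed.

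The other genes of the pump, its assembly and its partners went both ways. Of 31 such genes 30 were found and 25 passed the filter. The mutant mean was below the wild-type mean for 15 of the 25, against 46.8% of all genes, and above it for 10. The median difference was −0.03, and 11 of the 25 were lower in every pair, against 12.0% of all genes. By limma 0 of the 25 passed over all probe sets, and 1 had an unadjusted p under 0.05, against 118 of all 10372 genes. With the replicate number as a block 0 of the 25 passed by limma, and 5 had an unadjusted p under 0.05, against 611 of all genes. For the 9 cytosolic sector genes tested the median was −0.14, with 7 lower and 2 higher means, and 6 were lower in every pair. For the 7 assembly genes the median was 0.04, with 2 lower and 5 higher means, and 2 were lower in every pair.

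The 4 of these genes with the smallest unadjusted p were Tfec, Snx10, Atp6v1b2 and Atp6v1d, the brightest probe set of each lower in every pair. The second probe sets of Atp6v1b2 and Atp6v1d were also lower in every pair. The dimmer probe set of Snx10 differed by 0.03 in assay 3, and the dimmest of Atp6v1d by 0.008 in assay 1. A dim probe set of Atp6v1b2, at 9.53 to 13.4, had a mean difference of 0.07. Tfec, a relative of MITF and TFEB expressed in macrophages, read 311, 317 and 427 on mutant arrays 1, 2 and 3, and 445, 616 and 617 on wild-type arrays 1, 2 and 3. It was the 1 gene of the 25 without overlap, against 1.96% of all genes that were lower without overlap, and it differed by −0.64 ± 0.20 SE (limma, unadjusted p = 0.0195, adjusted p = 0.99998). The other MiT genes, Mitf, Tfeb and Tfe3, differed by 0.09 ± 0.32, 0.05 ± 0.29 and 0.00 ± 0.31 SE. Snx10, a sorting nexin that binds the pump and whose loss causes osteopetrosis, differed by −0.40 ± 0.21 SE. The cytosolic subunit genes Atp6v1b2 and Atp6v1d differed by −0.29 ± 0.17 and −0.28 ± 0.17 SE. Without wild-type array 3 they differed by −0.19 and −0.14, and without mutant array 1 by −0.19 and −0.18. With the block the unadjusted p-values by limma were 0.00656 for Tfec, 0.00864 for Snx10, 0.0188 for Atp6v1b2 and 0.0358 for Atp6v1d, each with an adjusted p of 0.859.

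**Figure D4:**
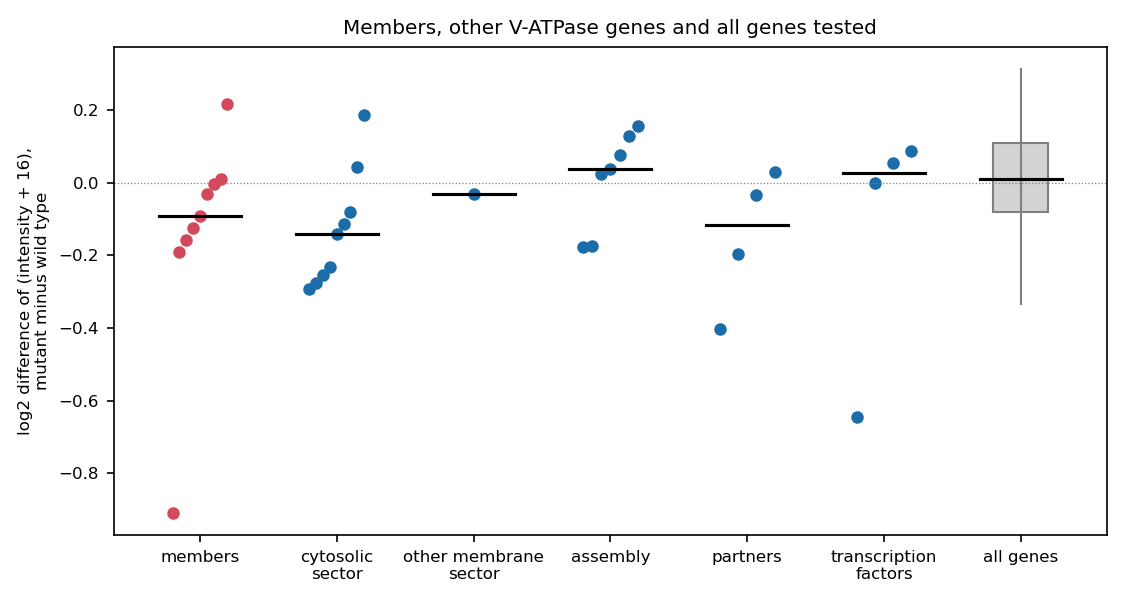
Log2 difference of (intensity + 16), mutant minus wild type, of the brightest probe set of each gene, for the 9 members, the 25 other V-ATPase genes by class, and all 10372 genes tested. Points are genes, black bars medians, the grey box the middle 50% and the grey line the 5th to 95th percentile of all genes. Atp6v0d2, at −0.91, Tfec, at −0.64, and Snx10, at −0.40, lie below the grey line, which ends at −0.33.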

How the data were processed

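The deposited table gave 1 intensity for each probe set on each array, on a linear scale. GCOS and GCRMA are named in the submitters' processing notes, without versions. GCRMA normalizes between arrays and compresses dim signals, so no further normalization was applied, and a shift shared by all genes cannot be seen.

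Of 45101 probe sets 64 controls were left out. Values were transformed to log2(intensity + 16). Probe sets above their array's median (percentile 50) on 3 or more of the 6 arrays were tested, 22497 in all, of 10372 genes. Mutant was compared with wild type, two-sided, with limma 3.58.1 in R 4.3.3 without a block, with Benjamini-Hochberg adjustment over all probe sets (threshold 0.05).

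Groups and replicate numbers came from the sample titles. Deviations from the group means correlated at 0.797, 0.671 and 0.845 for same-numbered arrays and at −0.618 to −0.0138 for others, which was read as pairing of same-numbered arrays. Whether the assays used different mice is not given, so p-values may measure technical spread.

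All members were named, with up to 4 other V-ATPase genes by smallest p, the 5 genes closest to Atp6v0d2, Acp5, Ctsk and Mmp9. The MiT factors without a small p, and Gpc1, were named after their values were seen. The members and lists were chosen with earlier results of these data known. Alternatives covered the block, pseudocount, filter, scaling, probe set rule and left-out arrays.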

Additional observations from a re-analysis of the deposited data

How the results depend on the processing

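Of 234 recomputed differences of the 9 members and 4 other named genes, 214 kept their direction and 20 turned. The block and filter settings left each difference as it was, so they could turn none, and the 214 include them. No member passed under any alternative with a test, while the mean of a gene's probe sets gave values only. Atp6v0b, Atp6v0d2 and Atp6v0e were lower under all 18 alternatives, at −0.26 to −0.07, −1.35 to −0.37 and −0.23 to −0.10. Leaving out a whole assay could not turn these either, as each was lower in every pair. Leaving out 1 array or 1 assay gave −0.324 to 0.049 for Tcirg1, −0.083 to 0.578 for Atp6v0a1, −0.228 to 0.054 for Atp6v0a2, −0.210 to 0.235 for Atp6v0d1, −0.105 to 0.021 for Atp6ap1 and −0.094 to 0.095 for Atp6ap2. It gave a median over the members of −0.160 to 0.021, 4 to 8 members with a lower mean and 0 to 3 without overlap, against 0. Leaving out 1 array sets unlike assays against each other, while leaving out a whole assay gave 7 members with a lower mean each time. With fewer arrays, values overlap less readily by construction. Quantile normalization gave 0.012 for Atp6v0d1 and 1 member without overlap. With the mean of a gene's probe sets Atp6v0a1 and Atp6ap2 were at −0.043 and −0.042, the median was −0.12, and 1 member did not overlap. The cause was not tested. With the replicate number as a block limma called 0 probe sets (smallest adjusted p = 0.0792, with 1189 at an unadjusted p under 0.05), and the replicate block changed no call of a member. As a random block it called 1, Gpc1. Atp6v0d2 relative to Atp6v0d1 was −1.548 to −0.164 when 1 array or assay was left out, and its exact test could not pass under any setting. Leaving out 1 array or assay gave −0.797 to −0.505 for Tfec, −0.583 to −0.276 for Snx10, −0.414 to −0.187 for Atp6v1b2 and −0.370 to −0.137 for Atp6v1d, and the mean of a gene's probe sets gave −0.157 for Atp6v1b2. A p that misses the threshold in 3 against 3 arrays does not show that levels were equal.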
